A study of Mus musculus with 17 samples.

Results

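The 35 genes described here mark T cells and natural killer (NK) cells. They were a fixed list of T cell receptor, coreceptor, adhesion, cytokine receptor, signaling, transcription factor and NK receptor genes, matched by symbol to the 50600 gene IDs of each count file. All 35 were found, and all 35 passed the filter on low counts. The series holds 17 RNA-seq libraries of polyadenylated RNA from C57BL/6J mice, in a model of rhabdoid tumor, a childhood cancer that is defined by loss of the chromatin remodelling subunit Smarcb1. The 14 tumor libraries carried the genotype SMARCB1 -/- and fell into 4 groups. They were syngeneic grafts of tumor grown in the flank (grafts, n = 3), extracranial tumors (n = 4), CNS tumors of the Myc subtype (Myc tumors, n = 4) and CNS tumors of the SHH subtype (SHH tumors, n = 3). Wild type healthy brain was the control (brains, n = 3). No normal tissue from outside the brain was included. In grafts and extracranial tumors against brains, tumor and tissue site therefore cannot be told apart. The sources used here do not give ages, the alleles or promoters behind the deletion, the tumors that were grafted, or any immune defect of the graft hosts. Separate animals are not stated for the libraries of a group, so the p-values reflect the spread among the libraries at hand, which may be technical.

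T cells recognise antigen through a receptor whose variable chains are carried by the invariant CD3 chains, with CD4 or CD8 as coreceptor. The kinases Lck and Zap70 and the scaffold Lat pass the signal on, and CD28 and ICOS add costimulation. NK cells kill without such a receptor and use activating and inhibitory receptors such as NKp46 (Ncr1), NKG2D (Klrk1) and CD94 (Klrd1). Healthy brain tissue holds few lymphocytes, and several genes of the list, such as Bcl11b, Tox and Thy1, are also known in neurons.

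Total counts per library were 36951431 to 96214427 in grafts, 22491998 to 52956537 in extracranial tumors, 18685672 to 114338058 in Myc tumors, 35662656 to 71390917 in SHH tumors and 103095016 to 130835711 in brains. The targeted gene Smarcb1 had 2.52 to 33.3 CPM in the 14 tumors, against 119 to 132 CPM in brains, so every tumor library was below every brain. CPM are counts per 1000000 counts, with library sizes scaled by the TMM method. The 10 neuron markers summed to 146 to 211 CPM in grafts, 61.9 to 448 in extracranial tumors, 97.4 to 554 in Myc tumors, 445 to 3497 in SHH tumors and 4841 to 5682 in brains. Transcripts of other tissue stood out in 6 libraries. Healthy brain 1 had 1215 CPM of the pituitary gene Gh and 138 CPM of the muscle gene Acta1, the myelin gene Mbp reached 4017 CPM in SHH CNS tumor 1, and Myc CNS tumor 1 had 71.4 CPM of Gh. Acta1 reached 46.8 CPM in Extracranial tumor 1 and 35.3 CPM in Extracranial tumor 2. Genes of osteoclasts, the bone-resorbing cells, reached 8031 CPM for the protease gene Ctsk in Extracranial tumor 4. The 10 such genes, chosen after the data were seen, summed to 266 to 30745 CPM over the 4 extracranial tumors. All comparisons were also fitted without 5 libraries with other tissue (the 6 above other than Extracranial tumor 4).

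Most of the 35 genes were highest in the grafts, lower in extracranial and Myc tumors, and lowest in SHH tumors and brains. In bulk tissue RNA, fewer cells of a type and less RNA per cell cannot be told apart. A gene was called at an adjusted p under 0.05 in the edgeR quasi-likelihood test over all 21494 genes that passed the filter. Against brains, 27 of 35 were called higher in grafts (77.1%, where 24.9% of all tested genes were called higher) and 1 was called lower (where 30.4% of all were). In extracranial tumors 23 were called higher (65.7%, against 26.1% of all genes) and 2 lower (26.1% of all). In Myc tumors 16 were called higher (45.7%, against 25.3% of all) and 1 lower (26.8% of all). In SHH tumors 1 was called higher (2.86%, against 2.44% of all), which is near the share of all genes, and 0 were called lower (1.94% of all), with 3 genes lower at an unadjusted p under 0.05, 2 lower by DESeq2 and 5 lower by limma voom. The median log2 fold change of the 35 genes against brains was 5.45 in grafts, 3.49 in extracranial tumors, 1.91 in Myc tumors and 0.64 in SHH tumors. The median of all tested genes was -0.16 in grafts, 0.05 in extracranial tumors, -0.01 in Myc tumors and -0.02 in SHH tumors. These 4 comparisons share the 3 brain libraries. Groups that did not overlap were also counted. All grafts were above all brains for 31 genes (34.5% of all tested genes) and below for 2 (40.5% of all). All extracranial tumors were above all brains for 17 (24.8% of all) and below for 3 (29.6% of all). All Myc tumors were above for 13 (25.2% of all) and below for 1 (30.7% of all), and all SHH tumors above for 5 (15.7% of all) and below for 5 (20.7% of all). Every graft was above every other library for 23 of 35 genes, where this held for 5.08% of all tested genes. The number of the 35 genes with at least 1 CPM was 34 in each graft, 10 to 31 in the extracranial tumors, 6 to 22 in the Myc tumors, 7 to 9 in the SHH tumors and 7 to 8 in the brains.

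**Figure D1:**
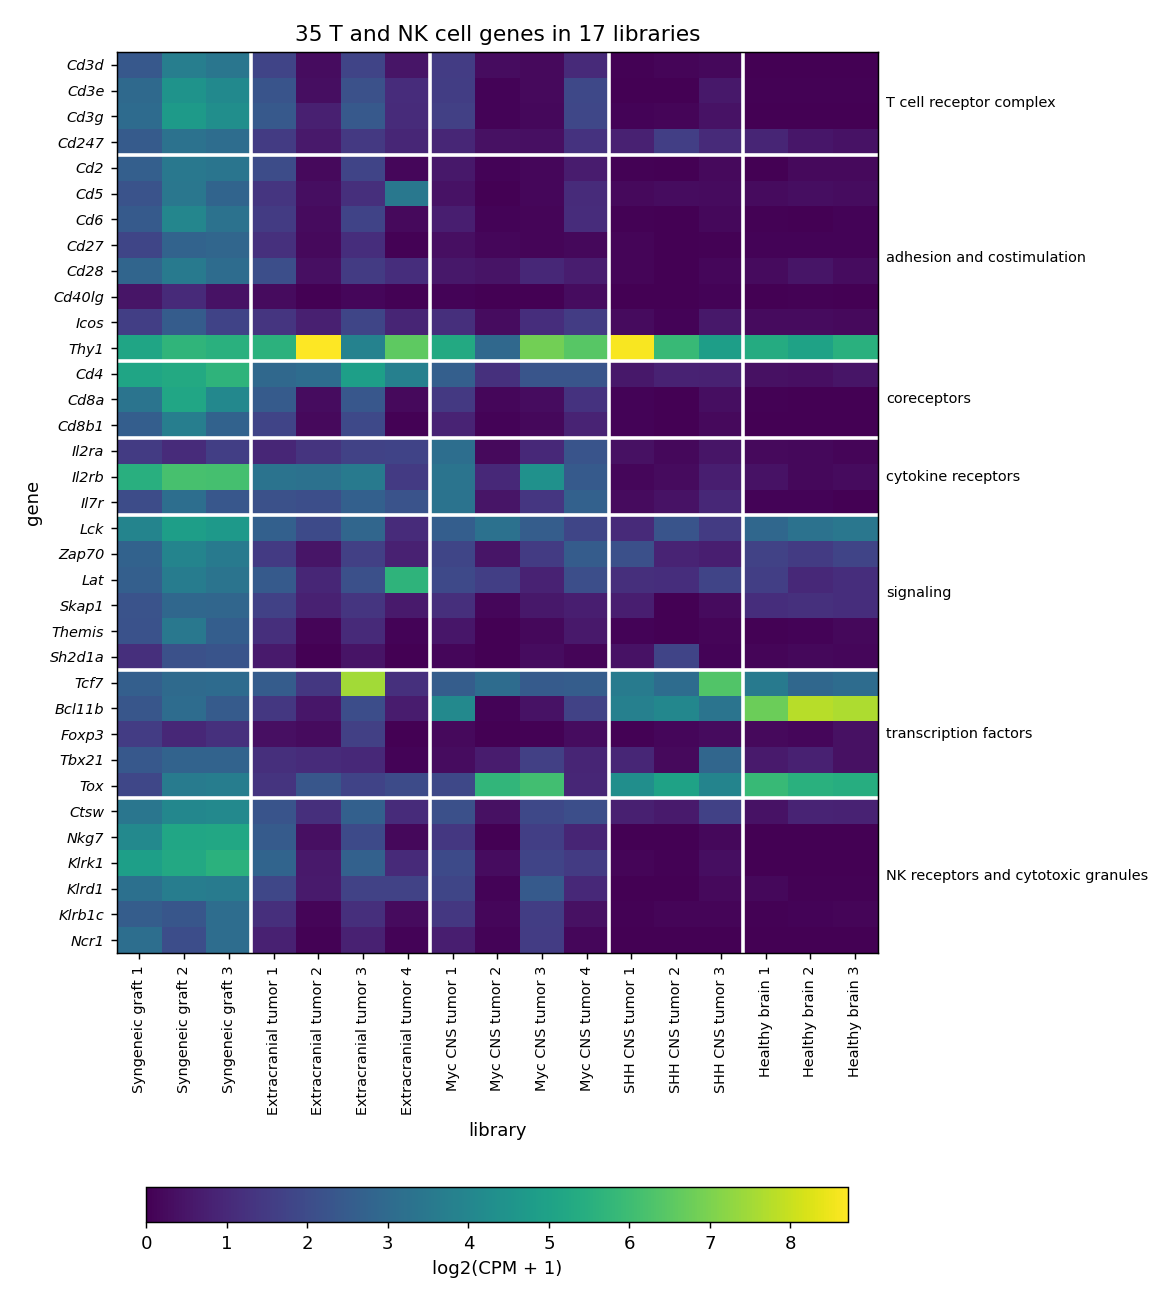
Level of each of the 35 genes, as log2(CPM + 1), in each of the 17 libraries, with genes in rows by role and libraries in columns by group. The 3 grafts are brightest for most rows, while Thy1, Tcf7, Bcl11b and Tox are bright in single tumors or in the 3 brains.

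The CD3 chains, which every conventional T cell receptor needs to reach the cell surface, were called higher than in brains in grafts, extracranial tumors and Myc tumors. Cd3e (CD3 epsilon) had 6.92, 21.5 and 16.4 CPM in grafts 1 to 3, 3.85, 0.253, 3.52 and 1.16 in extracranial tumors 1 to 4, and 2.02, 0.0521, 0.166 and 2.75 in Myc tumors 1 to 4. Cd3e was at 0, 0.0235 and 0.487 CPM in SHH tumors 1 to 3, against 0.0397, 0.0291 and 0.0398 in brains 1 to 3. Each graft was above each of the other 14 libraries, and the extracranial and Myc groups both held high and low tumors. Cd3e was higher than in brains in grafts (log2 fold change 8.61 ± 1.85 (SE), adjusted p = 0.00143), extracranial tumors (log2 fold change 5.84 ± 1.63 (SE), adjusted p = 0.00828) and Myc tumors (log2 fold change 5.03 ± 1.57 (SE), adjusted p = 0.0156). The call in Myc tumors was lost without Healthy brain 2 (adjusted p = 0.0569) or Healthy brain 3. Cd3g (CD3 gamma) had 7.23, 25.9 and 18.8 CPM in grafts 1 to 3, 4.39, 0.681, 4.36 and 1.09 in extracranial tumors 1 to 4, and 2.13, 0.0521, 0.140 and 2.59 in Myc tumors 1 to 4. Cd3g was at 0.0515, 0.0940 and 0.340 CPM in SHH tumors 1 to 3, against 0.00794, 0.0194 and 0.0159 in brains 1 to 3. It followed the order of Cd3e, with the 3 grafts at the top. Cd3d (CD3 delta) had 4.25, 12.3 and 9.68 CPM in grafts 1 to 3, 2.49, 0.234, 2.42 and 0.408 in extracranial tumors 1 to 4, and 1.91, 0.209, 0.157 and 1.06 in Myc tumors 1 to 4. Cd3d was at 0.0258, 0.0940 and 0.147 CPM in SHH tumors 1 to 3, against 0, 0.00971 and 0.0159 in brains 1 to 3. The grafts were again above all other libraries, and Extracranial tumor 1 and 3 came next. With 3 counts of Cd3d in the 3 brains together, its ratio of pooled CPM over brains was 1114 (95% exact binomial interval 380.5 to 5406) in grafts, 137 (95% exact binomial interval 46.0 to 671) in extracranial tumors and 69.1 (95% exact binomial interval 23.1 to 339.6) in Myc tumors, an interval that covers counting error only. Its adjusted p was 0.00015 in grafts, 0.000827 in extracranial tumors and 0.00153 in Myc tumors. Cd3g was higher in grafts by 10.06 ± 1.66 (SE) on the log2 scale (adjusted p = 0.000214). Cd247, the zeta chain that signals for both T and NK cell receptors, had 4.64, 8.64 and 7.75 CPM in grafts 1 to 3, 1.85, 0.506, 1.70 and 0.918 in extracranial tumors 1 to 4, and 0.929, 0.313, 0.288 and 1.45 in Myc tumors 1 to 4. Cd247 was at 0.747, 2.04 and 1.04 CPM in SHH tumors 1 to 3, against 0.866, 0.456 and 0.358 in brains 1 to 3. It was already present in brains and SHH tumors, and only the grafts were called higher than brains (log2 fold change 3.64 ± 0.74 (SE), adjusted p = 0.00101), of the 4 tumor groups. Cd247 overlaps Pou2f1 on the opposite strand, and since the strand setting of the counting was not given, reads of overlapping genes cannot be told apart. By annotation, 19 of the 35 genes overlap no other gene, 11 overlap a gene on the opposite strand and 10 one on the same strand, some of them both. Those with an overlap are Cd3e, Cd247, Cd27, Icos, Il2ra, Lck, Zap70, Lat, Skap1, Themis, Sh2d1a, Tcf7, Foxp3, Tox, Ctsw and Klrb1c, and the doubt applies to each.

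Cd3d and Cd3g start 1355 bases apart on opposite strands of mouse chromosome 9, with Cd3e next to them. Their promoters are shown because these 3 neighbouring genes moved together, and that of Bcl11b, a transcription factor gene, because it was called lower than in brains in 3 tumor groups. Each run holds 250 bases before and 50 after the gene's start in the RefSeq table (build GRCm38.p6), 5′ to 3′ on the gene's strand. Capitals mark matches, on either strand, to GGAAGT (the letters of ETS factors), TGTGGT (RUNX), CTTTGA (TCF) and CAGGTG (E-box). None of these motif matches overlaps another in these runs. They lie at chr9:44981536-44981835 (plus strand), chr9:44980382-44980681 (minus strand), chr9:45009562-45009861 (minus strand) and chr12:108003365-108003664 (minus strand).
Cd3d: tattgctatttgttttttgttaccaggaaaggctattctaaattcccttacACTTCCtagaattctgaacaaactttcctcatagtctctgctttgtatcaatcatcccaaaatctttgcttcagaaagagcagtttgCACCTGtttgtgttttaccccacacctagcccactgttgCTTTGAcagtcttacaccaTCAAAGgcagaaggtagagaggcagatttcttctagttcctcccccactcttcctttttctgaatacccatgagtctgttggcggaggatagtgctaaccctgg
Cd3g: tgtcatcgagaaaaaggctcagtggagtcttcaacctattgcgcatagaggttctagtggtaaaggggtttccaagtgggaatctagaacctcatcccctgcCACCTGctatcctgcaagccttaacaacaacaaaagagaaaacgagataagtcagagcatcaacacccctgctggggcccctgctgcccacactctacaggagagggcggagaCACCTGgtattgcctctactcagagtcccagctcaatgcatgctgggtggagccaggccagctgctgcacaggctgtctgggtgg
Cd3e: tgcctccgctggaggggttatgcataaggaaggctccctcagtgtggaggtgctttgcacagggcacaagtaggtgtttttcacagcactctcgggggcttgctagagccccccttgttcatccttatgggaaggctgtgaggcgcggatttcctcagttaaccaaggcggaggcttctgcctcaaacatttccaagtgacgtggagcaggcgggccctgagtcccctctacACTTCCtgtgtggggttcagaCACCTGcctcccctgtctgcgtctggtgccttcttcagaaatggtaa
Bcl11b: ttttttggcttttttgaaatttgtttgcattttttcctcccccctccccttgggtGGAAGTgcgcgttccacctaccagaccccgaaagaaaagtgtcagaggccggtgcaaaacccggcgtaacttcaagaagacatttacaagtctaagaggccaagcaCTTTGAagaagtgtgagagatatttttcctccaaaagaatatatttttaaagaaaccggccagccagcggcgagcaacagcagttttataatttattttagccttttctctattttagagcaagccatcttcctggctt
GGAAGT matched in Cd3d, Cd3e and Bcl11b, CTTTGA matched in Cd3d and Bcl11b, and CAGGTG matched in Cd3d, Cd3g and Cd3e. TGTGGT matched in none of these 4 windows. Of all 32851 promoters in the table, 23.8% held GGAAGT, 16.8% TGTGGT, 16% CTTTGA and 20.2% CAGGTG. The table held promoters of 21 of the 35 genes (28 promoters), of which 13 held GGAAGT, 9 TGTGGT, 6 CTTTGA and 11 CAGGTG. A match describes the letters and is not a binding site.

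The constant regions of the T cell receptor chains were measured beside the CD3 genes. Trac, Trbc1, Trbc2 and Trdc were all called higher in grafts than in brains (4 of 4), 3 of 4 in extracranial tumors and 2 of 4 in Myc tumors. Of all tested genes, 24.9%, 26.1% and 25.3% were called higher in these groups. Trac, of the alpha chain, had 6.78, 22.4 and 16 CPM in grafts 1 to 3, 3.22, 0.409, 4.12 and 3.30 in extracranial tumors 1 to 4, and 1.37, 0.313, 0.236 and 2.09 in Myc tumors 1 to 4. Trac was at 0.927, 0.0940 and 0.509 CPM in SHH tumors 1 to 3, against 0.0873, 0.155 and 0.326 in brains 1 to 3. The grafts were above all other libraries. Against Myc tumors, Trac and Trbc2 were higher in grafts (3.90 ± 0.96 and 3.35 ± 0.79 on the log2 scale, adjusted p = 0.033 and 0.0292), and each call was lost without any 1 graft or without Myc CNS tumor 3, and that of Trac also without Myc CNS tumor 1 or 2 (highest adjusted p = 0.106 for Trac and 0.0984 for Trbc2). Trdc, of the delta chain, had 2.62, 1.16 and 2.62 CPM in grafts 1 to 3, 0.634, 0.662, 1.34 and 3.77 in extracranial tumors 1 to 4, and 2.08, 0.156, 0.393 and 4.69 in Myc tumors 1 to 4. Trdc was at 0.155, 0.141 and 0.272 CPM in SHH tumors 1 to 3, against 0.0635, 0.0194 and 0.0239 in brains 1 to 3. Myc CNS tumor 4 and Extracranial tumor 4 had more Trdc than any graft. Trbc1 and Trbc2 are near copies of each other, so their separate counts are uncertain. The sum of Trac, Trbc1 and Trbc2 was 19.2, 54.2 and 41.2 CPM in grafts 1 to 3. It was 9.95, 6.93, 10.2 and 4.52 in extracranial tumors 1 to 4 and 6.40, 0.678, 3.39 and 5.72 in Myc tumors 1 to 4. In Extracranial tumor 2 and Myc CNS tumor 3 the sum of Cd3d, Cd3e and Cd3g was only 1.17 and 0.463 CPM. The 5 thymocyte genes were low in grafts, with Rag1 and Rag2 at 0 counts in all 3. Rag1 had 0, 0, 2.68 and 0.0340 CPM in extracranial tumors 1 to 4, 0.0547, 0, 0 and 0.0149 in Myc tumors 1 to 4, 4.38, 1.41 and 6.58 in SHH tumors 1 to 3 and 0.143, 1.04 and 0.398 in brains 1 to 3. Rag1 and Arpp21, which is also a neuronal gene, were called lower in grafts than in brains (adjusted p = 0.0257 and 0.000286). Extracranial tumor 3, the highest library outside the SHH group for Rag1, was also the highest of all for Rag2, at 0.805 CPM.

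The coreceptor genes were called higher than in brains in grafts, extracranial tumors and Myc tumors (3 of 3 genes in each). The shares of all tested genes called higher there were 24.9%, 26.1% and 25.3%. Cd4, which binds MHC class II and is also made by some macrophages and dendritic cells, had 33.8, 38.2 and 50.3 CPM in grafts 1 to 3, 6.78, 7.41, 29.5 and 12.7 in extracranial tumors 1 to 4, and 5.19, 1.30, 3.90 and 3.92 in Myc tumors 1 to 4. Cd4 was at 0.489, 0.799 and 0.736 CPM in SHH tumors 1 to 3, against 0.326, 0.281 and 0.422 in brains 1 to 3. Every tumor library lay above all brains. It was higher in grafts (log2 fold change 6.89 ± 0.70 (SE), adjusted p = 6.15e-06), extracranial tumors (log2 fold change 5.35 ± 0.65 (SE), adjusted p = 2.21e-05) and Myc tumors (log2 fold change 3.38 ± 0.59 (SE), adjusted p = 0.000356), and those 3 calls held under all alternatives run. Cd8a, of the coreceptor of cytotoxic T cells, had 9.11, 35.1 and 15.9 CPM in grafts 1 to 3, 4.73, 0.234, 4.12 and 0.170 in extracranial tumors 1 to 4, and 1.75, 0.104, 0.218 and 1.43 in Myc tumors 1 to 4. Cd8a was at 0.0515, 0.0235 and 0.249 CPM in SHH tumors 1 to 3, against 0.0476, 0 and 0.0239 in brains 1 to 3. Its levels separated Extracranial tumor 1 and 3 from 2 and 4, and Myc CNS tumor 1 and 4 from 2 and 3. Cd8a was higher in grafts (log2 fold change 9.57 ± 1.87 (SE), adjusted p = 0.000738) and extracranial tumors (log2 fold change 6.45 ± 1.63 (SE), adjusted p = 0.00469). It was also higher in Myc tumors (adjusted p = 0.014), a call lost without Healthy brain 2 or 3 (highest adjusted p = 0.0513). Cd8b1, of the CD8 beta chain, had 5.04, 12.4 and 5.71 CPM in grafts 1 to 3, 2.44, 0.156, 2.77 and 0.0340 in extracranial tumors 1 to 4, and 0.820, 0.0521, 0.148 and 0.822 in Myc tumors 1 to 4. Cd8b1 was at 0.0515, 0 and 0.159 CPM in SHH tumors 1 to 3, against 0.0159, 0 and 0.00795 in brains 1 to 3. It kept the order of Cd8a among the groups. With 3 counts in the brains together, the ratio of pooled CPM over brains was 891 (95% exact binomial interval 304 to 4327) in grafts (adjusted p = 0.000794), and its call in Myc tumors (adjusted p = 0.0117) was lost when the 5 libraries with other tissue were left out (0.0555). Per kb of exon, Cd4 had 8.39, 9.47 and 12.5 CPM in grafts 1 to 3 and Cd8a had 2.51, 9.66 and 4.38, so Cd8a reached the level of Cd4 in Syngeneic graft 2. In extracranial tumors 1 to 4 Cd4 had 1.68, 1.84, 7.31 and 3.16 CPM per kb and Cd8a had 1.30, 0.0642, 1.13 and 0.0467, and in Myc tumors 1 to 4 Cd4 had 1.29, 0.323, 0.968 and 0.971 and Cd8a had 0.481, 0.0287, 0.0600 and 0.395.

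**Figure D2:**
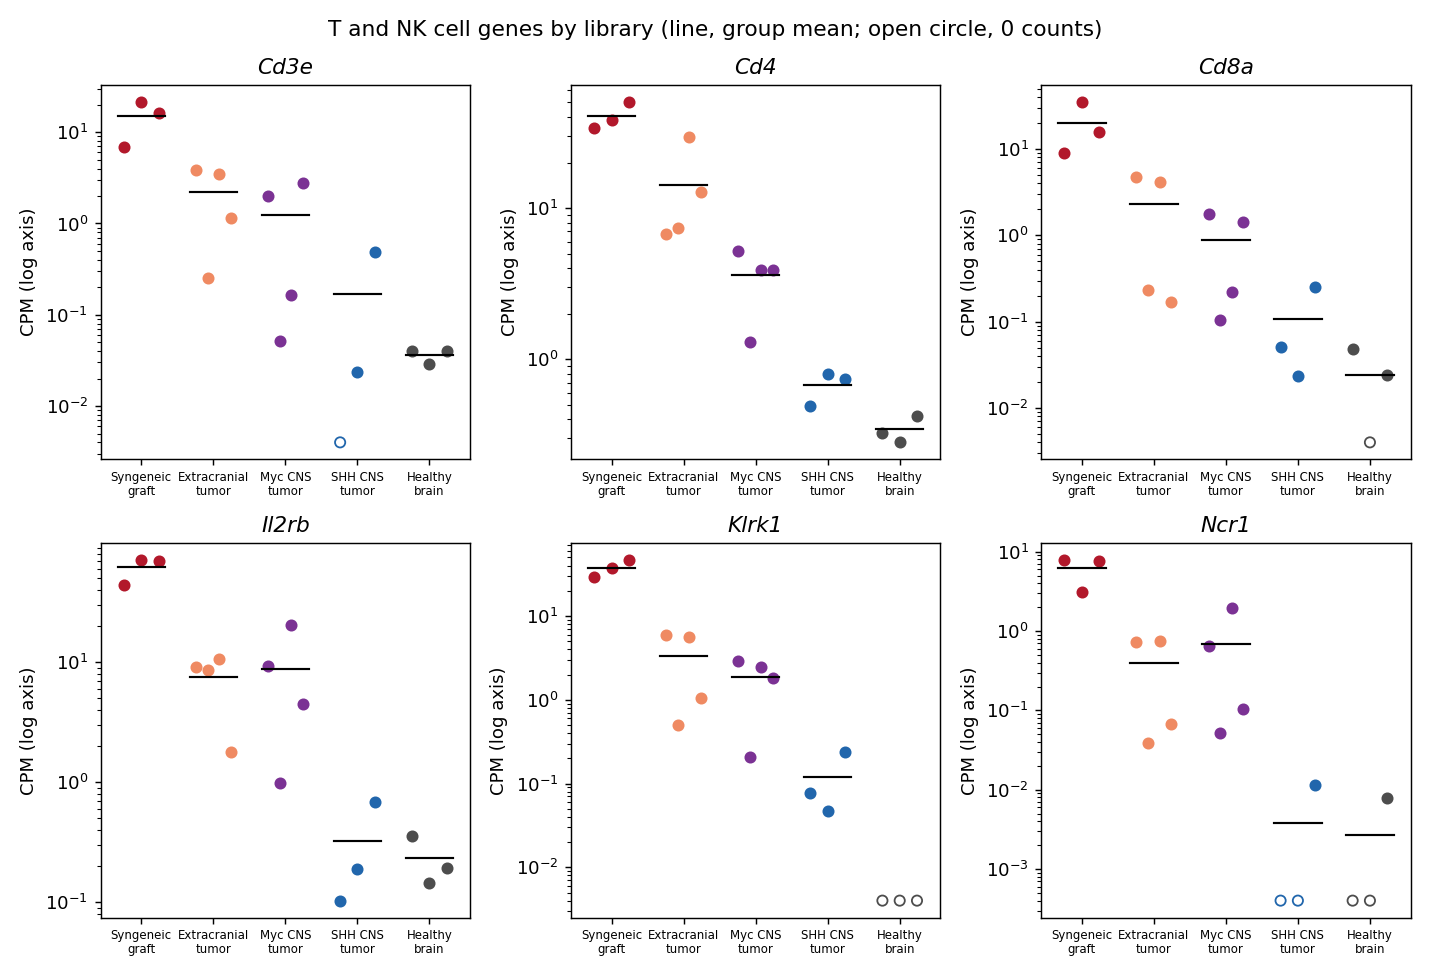
CPM of Cd3e, Cd4, Cd8a, Il2rb, Klrk1 and Ncr1 in each library on log axes, by group, with 1 point per library, a line at the group mean and an open circle for 0 counts. The 3 grafts lie above all other libraries in each panel, and the Myc and extracranial groups spread widely.

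Of the 8 adhesion and costimulation genes, 7 were called higher than in brains in grafts, 6 in extracranial tumors and 2 (Cd6 and Icos) in Myc tumors. The 2 of 8 in Myc tumors (25%) are near the 25.3% of all tested genes called higher there. In grafts and extracranial tumors the shares of all tested genes were 24.9% and 26.1%. Cd28, the main costimulatory receptor of naive T cells, had 6.25, 10.8 and 7.55 CPM in grafts 1 to 3, 3.27, 0.292, 1.88 and 1.19 in extracranial tumors 1 to 4, and 0.492, 0.365, 0.969 and 0.613 in Myc tumors 1 to 4. Cd28 was at 0.0773, 0.0235 and 0.102 CPM in SHH tumors 1 to 3, against 0.199, 0.417 and 0.231 in brains 1 to 3. The grafts were above all other libraries, the Myc tumors overlapped the brains and the SHH tumors lay below them. Cd28 was higher than in brains in grafts (log2 fold change 4.85 ± 0.80 (SE), adjusted p = 0.00021) and extracranial tumors (log2 fold change 2.54 ± 0.70 (SE), adjusted p = 0.00791), and higher in Myc tumors than in SHH tumors (log2 fold change 3.11 ± 0.76 (SE), adjusted p = 0.00538). Cd27, a costimulatory receptor of the TNF receptor family, had 2.53, 5.92 and 6.27 CPM in grafts 1 to 3, 1.32, 0.175, 1.22 and 0.0340 in extracranial tumors 1 to 4, and 0.273, 0.104, 0.0786 and 0.149 in Myc tumors 1 to 4. Cd27 was at 0.0773, 0.0235 and 0.0340 CPM in SHH tumors 1 to 3, against 0.0715, 0.0485 and 0.0557 in brains 1 to 3. All 3 grafts were above the rest. It rose in grafts against brains (log2 fold change 6.34 ± 1.09 (SE), adjusted p = 0.000285). Cd27 overlaps Vamp1 on the opposite strand. Icos, a costimulatory receptor of activated T cells, had 2.08, 4.75 and 2.39 CPM in grafts 1 to 3, 1.56, 0.681, 2.57 and 0.884 in extracranial tumors 1 to 4, and 1.26, 0.209, 1.23 and 1.93 in Myc tumors 1 to 4. Icos was at 0.206, 0.0705 and 0.464 CPM in SHH tumors 1 to 3, against 0.191, 0.204 and 0.175 in brains 1 to 3. The grafts overlapped the extracranial tumors for Icos, and it was called higher than in brains in grafts (adjusted p = 0.00107), extracranial tumors (adjusted p = 0.00615) and Myc tumors (adjusted p = 0.0105). The calls in extracranial and Myc tumors were lost when the 5 libraries with other tissue were left out (adjusted p = 0.0507 and 0.0709). Cd40lg, the ligand by which helper T cells activate B cells and myeloid cells, had 0.394, 1.05 and 0.355 CPM in grafts 1 to 3, 0.195, 0, 0.119 and 0.0340 in extracranial tumors 1 to 4, and 0.0547, 0, 0 and 0.224 in Myc tumors 1 to 4. Cd40lg was at 0, 0 and 0.0566 CPM in SHH tumors 1 to 3, against 0.00794, 0.0291 and 0 in brains 1 to 3. All grafts were above all other libraries, at low levels, and Cd40lg was higher than in brains (adjusted p = 0.00842).

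Cd2 and Cd6, adhesion receptors of T cells (Cd2 also of NK cells), were high in the grafts and in Extracranial tumor 1 and 3. Cd2 had 5.20, 10.4 and 9.47 CPM in grafts 1 to 3, 3.07, 0.175, 2.42 and 0.102 in extracranial tumors 1 to 4, and 0.492, 0.0521, 0.122 and 0.598 in Myc tumors 1 to 4. Cd2 was at 0.0258, 0 and 0.159 CPM in SHH tumors 1 to 3, against 0.0159, 0.175 and 0.167 in brains 1 to 3. All grafts were above all other libraries. Cd6 had 4.53, 15.2 and 8.68 CPM in grafts 1 to 3, 1.85, 0.195, 2.39 and 0.170 in extracranial tumors 1 to 4, and 0.656, 0.0521, 0.0960 and 1.14 in Myc tumors 1 to 4. Cd6 was at 0.0258, 0 and 0.136 CPM in SHH tumors 1 to 3, against 0.0397, 0.0194 and 0.0636 in brains 1 to 3. All grafts were again above all other libraries. Both were higher than in brains in grafts (adjusted p = 0.00396 for Cd2 and 0.000969 for Cd6) and in extracranial tumors (adjusted p = 0.0363 for Cd2 and 0.0101 for Cd6). The call of Cd2 in extracranial tumors was lost without Extracranial tumor 1 or 3 or any 1 brain (highest adjusted p = 0.108). The call of Cd6 in Myc tumors (adjusted p = 0.0346) was lost without Myc CNS tumor 1 or 4 or any 1 brain (highest adjusted p = 0.117), and its call in extracranial tumors was lost when the 5 libraries with other tissue were left out (adjusted p = 0.0672). Cd5, an inhibitory receptor of T cells and some B cells, had 3.71, 10.03 and 6.09 CPM in grafts 1 to 3, 1.56, 0.253, 1.28 and 10.2 in extracranial tumors 1 to 4, and 0.328, 0, 0.113 and 1.11 in Myc tumors 1 to 4. Cd5 was at 0.155, 0.235 and 0.204 CPM in SHH tumors 1 to 3, against 0.206, 0.252 and 0.231 in brains 1 to 3. Its highest library was Extracranial tumor 4, where Cd2, Cd6 and Cd8a were low. Cd5 was higher than in brains in grafts (log2 fold change 4.83 ± 1.35 (SE), adjusted p = 0.00771). Its call in extracranial tumors (adjusted p = 0.0197) was lost without Extracranial tumor 4 (adjusted p = 0.0969) and without any 1 brain. Thy1, a surface glycoprotein of T cells, neurons and fibroblasts, had 33.7, 51.6 and 45.6 CPM in grafts 1 to 3, 47.3, 420.1, 13.5 and 92.3 in extracranial tumors 1 to 4, and 38.0, 6.73, 116 and 86.8 in Myc tumors 1 to 4. Thy1 was at 393, 57.4 and 28.6 CPM in SHH tumors 1 to 3, against 40.3, 31.4 and 45.1 in brains 1 to 3. It was not called in any of the 8 comparisons, and its highest libraries were Extracranial tumor 2 and SHH CNS tumor 1, both low in Cd3e.

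All 3 cytokine receptor genes were called higher than in brains in grafts, extracranial tumors and Myc tumors, and higher in Myc tumors than in SHH tumors (3 of 3). Among all tested genes these shares were 24.9%, 26.1% and 25.3% against brains, and 19.0% in Myc against SHH tumors. Il2rb, the beta chain that NK cells and memory T cells use for interleukin-2 and interleukin-15, had 43.8, 70.7 and 70.1 CPM in grafts 1 to 3, 9.07, 8.62, 10.7 and 1.77 in extracranial tumors 1 to 4, and 9.24, 0.991, 20.5 and 4.51 in Myc tumors 1 to 4. Il2rb was at 0.103, 0.188 and 0.679 CPM in SHH tumors 1 to 3, against 0.357, 0.146 and 0.191 in brains 1 to 3. The grafts stood above all other libraries and Myc CNS tumor 3 came next. Il2rb rose against brains in grafts (log2 fold change 8.04 ± 1.19 (SE), adjusted p = 9.36e-05), extracranial tumors (log2 fold change 5.01 ± 1.02 (SE), adjusted p = 0.0011) and Myc tumors (log2 fold change 5.24 ± 1.03 (SE), adjusted p = 0.0009). Il2ra, the alpha chain found on activated and regulatory T cells, had 1.83, 1.12 and 2.04 CPM in grafts 1 to 3, 0.927, 1.48, 2.30 and 2.38 in extracranial tumors 1 to 4, and 7.93, 0.156, 1.02 and 3.78 in Myc tumors 1 to 4. Il2ra was at 0.309, 0.141 and 0.396 CPM in SHH tumors 1 to 3, against 0.175, 0.146 and 0.0954 in brains 1 to 3. All SHH tumors and brains were low. Il7r, the interleukin-7 receptor of naive and memory T cells and innate lymphoid cells, had 3.07, 7.83 and 4.19 CPM in grafts 1 to 3, 3.51, 3.27, 5.43 and 3.67 in extracranial tumors 1 to 4, and 9.07, 0.417, 1.61 and 5.47 in Myc tumors 1 to 4. Il7r was at 0.206, 0.353 and 0.940 CPM in SHH tumors 1 to 3, against 0.0556, 0.0582 and 0.0239 in brains 1 to 3. For both genes Myc CNS tumor 1 was the highest of the 17 libraries and the grafts lay inside the range of the other tumors. Il2ra was higher than in brains in grafts, extracranial tumors and Myc tumors (log2 fold changes 3.57 ± 0.98, 3.66 ± 0.96 and 4.51 ± 1.0, adjusted p = 0.00701, 0.00581 and 0.00202). Il7r was higher in the same 3 groups (6.72 ± 1.07, 6.38 ± 1.05 and 6.44 ± 1.05, adjusted p = 0.00017, 0.000222 and 0.000226). Neither was called between grafts and extracranial or Myc tumors. Per kb of exon, Il2ra had the lowest graft level of the 35 genes (mean 0.291 CPM per kb) and Nkg7 the highest (32.1).

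Of the 6 signaling genes, 3 (Zap70, Themis and Sh2d1a) were called higher than in brains in grafts, 2 (Lat and Themis) in extracranial tumors, and 0 in Myc tumors by edgeR, with 0 higher at an unadjusted p under 0.05 and 0 by DESeq2 and 0 by limma voom. The 3 of 6 in grafts (50%) compare with 24.9% of all tested genes, the 2 of 6 in extracranial tumors (33.3%) with 26.1%, and the 0 of 6 in Myc tumors with 25.3%. Lck, the kinase that phosphorylates the CD3 chains, had 14.3, 28.9 and 25.1 CPM in grafts 1 to 3, 5.37, 2.84, 6.35 and 1.12 in extracranial tumors 1 to 4, and 5.03, 8.60, 4.92 and 2.57 in Myc tumors 1 to 4. Lck was at 1.03, 3.76 and 1.87 CPM in SHH tumors 1 to 3, against 6.60, 8.73 and 9.92 in brains 1 to 3. The grafts were above all other libraries, and of the other tumors only Myc CNS tumor 2 reached the range of the brains. Against brains the grafts missed the threshold (adjusted p = 0.0643), and passed it when only the 6 libraries of these groups were fitted (0.00594). Zap70, the kinase recruited to the phosphorylated chains, had 5.63, 14.1 and 10.7 CPM in grafts 1 to 3, 1.80, 0.409, 2.15 and 0.748 in extracranial tumors 1 to 4, and 2.51, 0.417, 1.83 and 4.80 in Myc tumors 1 to 4. Zap70 was at 3.40, 0.823 and 0.657 CPM in SHH tumors 1 to 3, against 2.33, 1.83 and 2.49 in brains 1 to 3. The grafts were above all other libraries, while brains overlapped the other tumors. Zap70 was higher in grafts than in brains (log2 fold change 2.20 ± 0.85 (SE), adjusted p = 0.04), a call lost without Syngeneic graft 2 or 3 or any 1 brain (highest adjusted p = 0.112).

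Lat, the membrane scaffold downstream of Zap70, had 5.18, 11.6 and 9.30 CPM in grafts 1 to 3, 4.59, 0.934, 3.34 and 49.7 in extracranial tumors 1 to 4, and 2.79, 2.09, 0.803 and 3.23 in Myc tumors 1 to 4. Lat was at 1.24, 1.2 and 2.46 CPM in SHH tumors 1 to 3, against 2.10, 0.990 and 1.19 in brains 1 to 3. Extracranial tumor 4 was far above every graft. It was also the library with the most osteoclast transcripts, and their part in the level of Lat was not tested. The call of Lat in extracranial tumors against brains (log2 fold change 3.36 ± 1.10 (SE), adjusted p = 0.0194) was lost without Extracranial tumor 4 (adjusted p = 0.201) and without Healthy brain 2 or 3. The grafts, which did not overlap the brains, missed the threshold (adjusted p = 0.0551) and passed without Extracranial tumor 4 (0.00503). Themis, a regulator of T cell receptor signal strength in developing T cells, had 3.57, 10.2 and 5.11 CPM in grafts 1 to 3, 1.27, 0.0973, 1.04 and 0.0680 in extracranial tumors 1 to 4, and 0.437, 0, 0.148 and 0.508 in Myc tumors 1 to 4. Themis was at 0.0515, 0.0235 and 0.0793 CPM in SHH tumors 1 to 3, against 0.0318, 0.0679 and 0.143 in brains 1 to 3. It rose in grafts (log2 fold change 6.24 ± 1.32 (SE), adjusted p = 0.00131). Its call in extracranial tumors (adjusted p = 0.0436) was lost in 12 of the 17 fits that left out 1 library, Extracranial tumor 1 or 3 and any 1 graft or brain among them (highest adjusted p = 0.132). Sh2d1a, the adaptor SAP of T and NK cells, had 1.27, 3.43 and 3.84 CPM in grafts 1 to 3, 0.537, 0.0195, 0.388 and 0 in extracranial tumors 1 to 4, and 0.109, 0, 0.210 and 0.0897 in Myc tumors 1 to 4. Sh2d1a was at 0.335, 2.47 and 0.0679 CPM in SHH tumors 1 to 3, against 0.0794, 0.126 and 0.103 in brains 1 to 3. Outside the grafts its highest library was SHH CNS tumor 2, within the range of the grafts, and the gene overlaps Tenm1 on the opposite strand. Sh2d1a was higher in grafts than in brains (log2 fold change 4.77 ± 1.43 (SE), adjusted p = 0.0116), a call lost when the 5 libraries with other tissue were left out (adjusted p = 0.0532). Skap1, an adaptor that links the receptor to adhesion, had 3.69, 6.54 and 6.35 CPM in grafts 1 to 3, 2.24, 0.759, 1.55 and 0.544 in extracranial tumors 1 to 4, and 1.26, 0.104, 0.480 and 0.643 in Myc tumors 1 to 4. Skap1 was at 0.670, 0 and 0.192 CPM in SHH tumors 1 to 3, against 1.22, 1.30 and 1.19 in brains 1 to 3. The grafts did not overlap the brains but missed the threshold (adjusted p = 0.0796, and 0.00129 when only the 6 libraries were fitted).

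Of the 5 transcription factor genes, Tbx21 alone was called higher than in brains in grafts and Bcl11b alone lower. Neither count is above the share of all tested genes, of which 24.9% were called higher in grafts and 30.4% lower. Bcl11b, which commits precursors to the T cell lineage and is also a neuronal factor, had 4.02, 7.52 and 4.68 CPM in grafts 1 to 3, 1.66, 0.428, 3.13 and 0.578 in extracranial tumors 1 to 4, and 16.1, 0.0521, 0.332 and 2.27 in Myc tumors 1 to 4. Bcl11b was at 13.0, 15.4 and 9.11 CPM in SHH tumors 1 to 3, against 107, 217 and 199 in brains 1 to 3. Every tumor was below every brain, and Bcl11b fell in grafts (log2 fold change -5.01 ± 1.39 (SE), adjusted p = 0.00767), extracranial tumors (log2 fold change -6.91 ± 1.35 (SE), adjusted p = 0.000803) and Myc tumors (log2 fold change -5.24 ± 1.25 (SE), adjusted p = 0.00327). Tox, a factor of developing, exhausted and neuronal cells, had 2.59, 11.5 and 12.1 CPM in grafts 1 to 3, 1.46, 4.07, 2.39 and 3.02 in extracranial tumors 1 to 4, and 2.73, 52.1, 66.0 and 0.897 in Myc tumors 1 to 4. Tox was at 19.0, 31.2 and 14.5 CPM in SHH tumors 1 to 3, against 57.7, 45.7 and 41.9 in brains 1 to 3. Myc CNS tumor 2 and 3 reached the level of brains and the other Myc tumors did not. Tox fell in extracranial tumors (log2 fold change -4.14 ± 1.07 (SE), adjusted p = 0.00523), a call lost when the 5 libraries with other tissue were left out (adjusted p = 0.0564), and missed the threshold in grafts (adjusted p = 0.0721, and 0.00616 when only the 6 libraries were fitted).

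Tcf7, the factor TCF1 of naive and stem-like T cells, had 5.18, 7.06 and 7.32 CPM in grafts 1 to 3, 4.83, 1.65, 180.2 and 1.33 in extracranial tumors 1 to 4, and 4.97, 7.56, 4.70 and 4.96 in Myc tumors 1 to 4. Tcf7 was at 11.3, 7.38 and 80.9 CPM in SHH tumors 1 to 3, against 10.8, 6.55 and 7.41 in brains 1 to 3. Extracranial tumor 3 and SHH CNS tumor 3 stood far above all others, and the grafts overlapped the brains and were not called against them. Tcf7 overlaps 2 other annotated transcripts. Tbx21, the factor T-bet of type 1 T cells and NK cells, had 4.33, 5.77 and 5.88 CPM in grafts 1 to 3, 1.27, 1.11, 0.984 and 0.0680 in extracranial tumors 1 to 4, and 0.219, 0.574, 2.13 and 0.852 in Myc tumors 1 to 4. Tbx21 was at 0.927, 0.165 and 6.29 CPM in SHH tumors 1 to 3, against 0.564, 0.757 and 0.318 in brains 1 to 3. The grafts were above all brains, but SHH CNS tumor 3 was the highest library. Tbx21 was higher in grafts than in brains (log2 fold change 3.28 ± 1.16 (SE), adjusted p = 0.0271), a call lost without Syngeneic graft 2 or 3 or any 1 brain (highest adjusted p = 0.0917). Foxp3, the defining factor of regulatory T cells, had 1.94, 0.940 and 1.33 CPM in grafts 1 to 3, 0.293, 0.195, 2.15 and 0 in extracranial tumors 1 to 4, and 0.164, 0, 0.0262 and 0.224 in Myc tumors 1 to 4. Foxp3 was at 0.0258, 0.118 and 0.181 CPM in SHH tumors 1 to 3, against 0.167, 0.116 and 0.326 in brains 1 to 3. Extracranial tumor 3 was the highest library, above all grafts, and it also held the highest Cd4 of the extracranial tumors. In grafts Foxp3 did not overlap the brains and missed the threshold (adjusted p = 0.0751, and 0.0027 when only the 6 libraries were fitted). Foxp3 overlaps Ccdc22 and Ppp1r3f on the opposite strand.

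**Figure D3:**
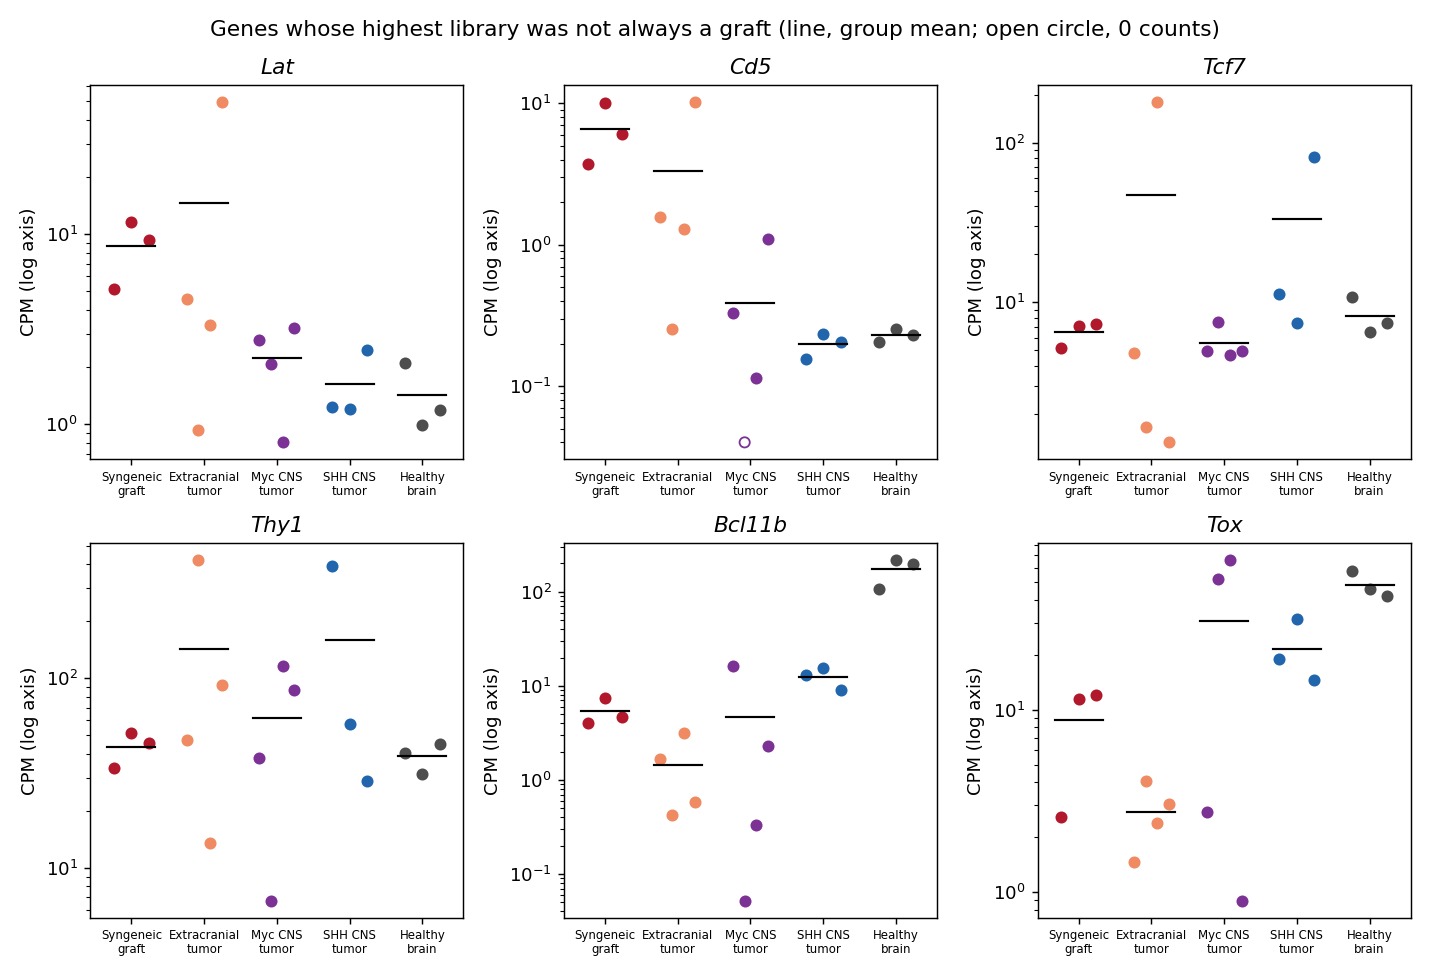
CPM of Lat, Cd5, Tcf7, Thy1, Bcl11b and Tox in each library on log axes, by group, with 1 point per library, a line at the group mean and an open circle for 0 counts. Extracranial tumor 4 is the highest library for Lat and Cd5, Extracranial tumor 3 for Tcf7 and Extracranial tumor 2 for Thy1, while Bcl11b is highest in the 3 brains.

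All 6 NK receptor and cytotoxic granule genes were called higher than in brains in grafts and in extracranial tumors, and 5 of 6 in Myc tumors. The shares of all tested genes called higher were 24.9%, 26.1% and 25.3%. Klrk1, the activating receptor NKG2D of NK and CD8 T cells, had 29.5, 37.0 and 46.3 CPM in grafts 1 to 3, 6.00, 0.506, 5.61 and 1.05 in extracranial tumors 1 to 4, and 2.90, 0.209, 2.44 and 1.84 in Myc tumors 1 to 4. Klrk1 was at 0.0773, 0.0470 and 0.238 CPM in SHH tumors 1 to 3, against 0, 0 and 0 in brains 1 to 3. With 0 counts in the brains and a floor of 3 counts over the group, the mean of Klrk1 was 4446 times that floor in grafts, 389 times in extracranial tumors, 218 times in Myc tumors and 14.3 times in SHH tumors. These folds leave out the error of the tumor means. In SHH tumors, 21 of the 26 counts came from SHH CNS tumor 3. Its adjusted p was 3.99e-05 in grafts, 0.000165 in extracranial tumors, 0.000265 in Myc tumors and 0.0422 in SHH tumors. It was the 1 gene of the 35 called in SHH tumors, and that call was lost in 11 of the 17 fits that left out 1 library, each brain, each SHH tumor and each graft among them (highest adjusted p = 0.17).

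Ncr1, the NK receptor NKp46, had 7.82, 3.15 and 7.71 CPM in grafts 1 to 3, 0.732, 0.0389, 0.746 and 0.0680 in extracranial tumors 1 to 4, and 0.656, 0.0521, 1.94 and 0.105 in Myc tumors 1 to 4. Ncr1 was at 0, 0 and 0.0113 CPM in SHH tumors 1 to 3, against 0, 0 and 0.00795 in brains 1 to 3. Myc CNS tumor 3 came next after the grafts, and with 1 count in the brains the ratio of pooled CPM over brains was 2269 (95% exact binomial interval 406 to 89689) in grafts (adjusted p = 0.000317). Klrd1, the CD94 chain that pairs with NKG2 receptors, had 8.41, 11.9 and 11.5 CPM in grafts 1 to 3, 2.63, 0.564, 2.33 and 2.28 in extracranial tumors 1 to 4, and 2.51, 0.0521, 4.50 and 1.0 in Myc tumors 1 to 4. Klrd1 was at 0, 0 and 0.170 CPM in SHH tumors 1 to 3, against 0.143, 0.0291 and 0.0318 in brains 1 to 3. It was higher than in brains in grafts (log2 fold change 7.23 ± 1.54 (SE), adjusted p = 0.00135), extracranial tumors (log2 fold change 4.79 ± 1.36 (SE), adjusted p = 0.00919) and Myc tumors (log2 fold change 4.85 ± 1.36 (SE), adjusted p = 0.00879). Klrb1c, the NK1.1 antigen of C57BL/6 mice, had 4.95, 4.02 and 7.72 CPM in grafts 1 to 3, 1.27, 0.0778, 1.25 and 0.204 in extracranial tumors 1 to 4, and 1.69, 0.104, 2.03 and 0.314 in Myc tumors 1 to 4. Klrb1c was at 0.0258, 0.0940 and 0.0793 CPM in SHH tumors 1 to 3, against 0.0397, 0.0582 and 0.0795 in brains 1 to 3. Extracranial tumor 1 and 3 and Myc CNS tumor 1 and 3 were its highest libraries outside the grafts. Klrb1c was higher than in brains in grafts (log2 fold change 6.51 ± 1.25 (SE), adjusted p = 0.00066) and Myc tumors (log2 fold change 4.09 ± 1.10 (SE), adjusted p = 0.00703), and its call in extracranial tumors (adjusted p = 0.0145) was lost without Healthy brain 1 (adjusted p = 0.0543).

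Nkg7, a protein of cytotoxic granules, had 16.4, 34.9 and 36.8 CPM in grafts 1 to 3, 4.73, 0.292, 2.86 and 0.136 in extracranial tumors 1 to 4, and 1.64, 0, 2.09 and 0.852 in Myc tumors 1 to 4. Nkg7 was at 0, 0 and 0.147 CPM in SHH tumors 1 to 3, against 0.00794, 0.0194 and 0.00795 in brains 1 to 3. It rose in grafts (log2 fold change 11.09 ± 2.06 (SE), adjusted p = 0.00051), extracranial tumors (log2 fold change 7.21 ± 1.78 (SE), adjusted p = 0.00398) and Myc tumors (log2 fold change 6.42 ± 1.73 (SE), adjusted p = 0.00687). Ctsw, a granule protease, had 9.76, 15.3 and 16.1 CPM in grafts 1 to 3, 3.80, 1.26, 5.37 and 1.12 in extracranial tumors 1 to 4, and 3.33, 0.313, 2.74 and 3.32 in Myc tumors 1 to 4. Ctsw was at 0.695, 0.541 and 2.22 CPM in SHH tumors 1 to 3, against 0.334, 0.806 and 0.803 in brains 1 to 3. Ctsw rose in grafts (log2 fold change 4.40 ± 0.92 (SE), adjusted p = 0.00119), and its call in extracranial tumors (adjusted p = 0.0369) was lost without Extracranial tumor 1 or 3 or any 1 brain (highest adjusted p = 0.122). Ctsw overlaps Fibp on the opposite strand. The 8 other granule and effector genes examined, which are not among the 35, were called higher than in brains for 8 of 8 in grafts, 5 of 8 in extracranial tumors (with Ifng called lower, at 0 counts in all 4) and 5 of 8 in Myc tumors. Of all tested genes, 24.9%, 26.1% and 25.3% were called higher in these groups. Ifng was near the floor in brains too, at 0.0318, 0.0194 and 0.0159 CPM in brains 1 to 3. Each brain library held more total counts than any extracranial tumor, so the call of Ifng as lower rests on few counts. The granzyme gene Gzmb had 31.1, 52.7 and 52.0 CPM in grafts 1 to 3, 3.12, 0.584, 1.31 and 0.510 in extracranial tumors 1 to 4, and 3.94, 0.313, 17.2 and 0.658 in Myc tumors 1 to 4. Gzmb was at 0, 0.0235 and 0.0113 CPM in SHH tumors 1 to 3, against 0.0159, 0.00971 and 0.00795 in brains 1 to 3. All grafts were above all other libraries for Gzmb. The perforin gene Prf1 had 6.70, 8.53 and 15.4 CPM in grafts 1 to 3, 1.85, 0.311, 0.268 and 0.238 in extracranial tumors 1 to 4, and 3.01, 0.104, 24 and 0.224 in Myc tumors 1 to 4. Prf1 was at 0.0258, 0 and 0.0113 CPM in SHH tumors 1 to 3, against 0.0159, 0.0291 and 0.00795 in brains 1 to 3. Myc CNS tumor 3 was the highest tumor outside the grafts for Gzmb and the highest of all libraries for Prf1. Both were higher in Myc tumors than in SHH tumors (adjusted p = 0.000954 for Gzmb and 0.00357 for Prf1), and both calls held without any 1 library. Granzyme genes are similar in sequence, so their separate counts are uncertain.

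The CD3 and NK receptor genes were set against each other within libraries. The summed CPM of Cd3d, Cd3e and Cd3g was 18.4, 59.7 and 44.9 in grafts 1 to 3, 10.7, 1.17, 10.3 and 2.65 in extracranial tumors 1 to 4, 6.07, 0.313, 0.463 and 6.40 in Myc tumors 1 to 4, 0.0773, 0.212 and 0.974 in SHH tumors 1 to 3, and 0.0476, 0.0582 and 0.0716 in brains 1 to 3. The summed CPM of Klrd1, Klrb1c and Ncr1 was 21.2, 19.0 and 26.9 in grafts, 4.63, 0.681, 4.33 and 2.55 in extracranial tumors, 4.87, 0.209, 8.47 and 1.42 in Myc tumors, 0.0258, 0.0940 and 0.260 in SHH tumors, and 0.183, 0.0873 and 0.119 in brains. Myc CNS tumor 3 had low CD3 genes and the highest sum of Klrd1, Klrb1c and Ncr1 outside the grafts. Its counts of these NK receptor genes were 18.3 times those of the CD3 genes (970 and 53 counts, 95% exact binomial interval 13.9 to 24.6). The other genes of this role were highest elsewhere outside the grafts, Klrk1 and Nkg7 in Extracranial tumor 1 and Ctsw in Extracranial tumor 3. The sum would thus differ with another choice of genes. The ratio of NK receptor to CD3 genes was 0.802 in Myc CNS tumor 1 and 0.222 (0.176 to 0.278) in Myc CNS tumor 4. In Myc CNS tumor 2 it was 0.667 (0.138 to 2.81), on only 4 and 6 counts. Among the grafts it was 1.15, 0.319 and 0.599, and among the extracranial tumors 0.432, 0.583, 0.420 and 0.962. In SHH tumors 1 to 3 it was 0.333, 0.444 and 0.267, and in brains 1 to 3 it was 3.83, 1.5 and 1.67. The CD3 counts behind these were 3, 9 and 86 in SHH tumors and 6, 6 and 9 in brains. These ratios compare libraries and are not ratios of cells. Whether the difference within the Myc group recurs in other tumors was not tested.

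**Figure D4:**
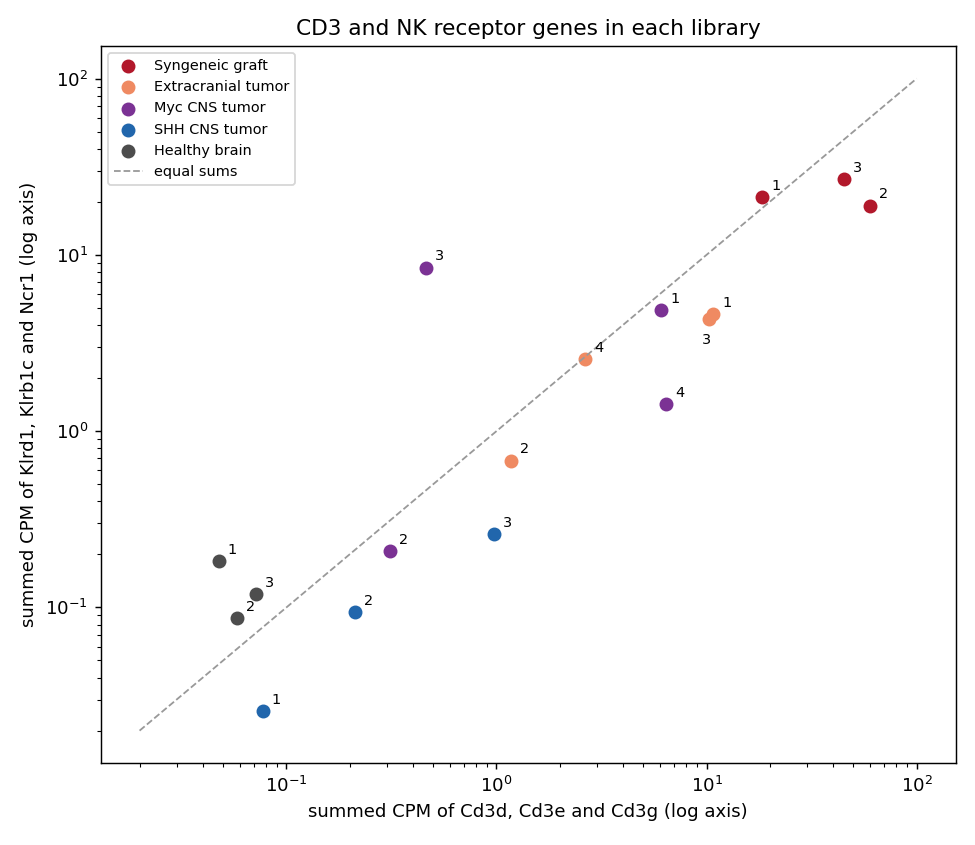
Summed CPM of Cd3d, Cd3e and Cd3g (x, log axis) against summed CPM of Klrd1, Klrb1c and Ncr1 (y, log axis), with 1 point per library, numbered as in the labels and coloured by group, and a dashed line where both sums are equal. Myc CNS tumor 3 lies far above the line at 0.463 and 8.47 CPM, and the 3 grafts lie at the upper right.

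For these genes the tumors within a group differed more in the Myc and extracranial groups than in the grafts. Over the genes with a count in every library of the group, the highest library was a median of 13.9 times the lowest in Myc tumors (29 genes), 11.5 times in extracranial tumors (32 genes) and 2.23 times in grafts (35 genes). This ratio spans 4 libraries in the first 2 groups and 3 in grafts, and low counts raise it. The contrast was not particular to the 35 genes. Over all genes, the chi-square per gene between libraries of a group, which also grows with depth, was 82.2 to 199 in grafts. It was 222 to 885 in Myc tumors and 413 to 605 in extracranial tumors. Myc CNS tumor 2 was the lowest Myc tumor for 27 of the 35 genes. Extracranial tumor 1 was the highest extracranial tumor for 17 and Extracranial tumor 3 for 13. Syngeneic graft 2 was the highest of all libraries for 17 genes, Syngeneic graft 3 for 7 and Syngeneic graft 1 for 1 (Ncr1). The pan-leukocyte gene Ptprc (CD45) had 469.6, 418 and 358 CPM in grafts 1 to 3, 259, 83.8, 113 and 128 in extracranial tumors 1 to 4, 157, 65.5, 69.3 and 85.5 in Myc tumors 1 to 4, 9.87, 8.39 and 18.3 in SHH tumors 1 to 3, and 3.59, 2.24 and 2.08 in brains 1 to 3. Per 100 CPM of Ptprc, the CD3 sum was 3.92 to 14.3 CPM in grafts, 1.39 to 9.13 in extracranial tumors, 0.478 to 7.48 in Myc tumors, 0.783 to 5.32 in SHH tumors and 1.33 to 3.45 in brains. On this scale the grafts overlapped the 3 other tumor groups. The lowest graft (3.92) lay just above the highest brain (3.45). The CD3 sums rest on 6, 6 and 9 counts in brains 1 to 3 and on 3 in SHH CNS tumor 1. These are too few to separate grafts from brains on this scale. Per 100 CPM of Ptprc, the sum of Klrd1, Klrb1c and Ncr1 was 4.51 to 7.52 CPM in grafts, 0.813 to 3.84 in extracranial tumors, 0.318 to 12.2 in Myc tumors, 0.261 to 1.42 in SHH tumors and 3.90 to 5.75 in brains. Here the grafts lay above all extracranial and SHH tumors and overlapped the brains and the Myc tumors, of which Myc CNS tumor 3 was the highest. The part of total leukocytes in the differences was not tested.

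Between tumor groups, grafts were called higher than extracranial tumors for 3 of 35 genes (8.57%, against 2.16% of all tested genes) and lower for 0 (2.62% of all, with 0 lower at an unadjusted p under 0.05 and 0 by DESeq2 or limma voom). The 3 genes were Cd247 (log2 fold change 2.5 ± 0.64 (SE), adjusted p = 0.0427), Lck (log2 fold change 2.54 ± 0.59 (SE), adjusted p = 0.0323) and Zap70 (log2 fold change 3.00 ± 0.79 (SE), adjusted p = 0.0459). Each call was lost without any 1 graft or without Extracranial tumor 2 (highest adjusted p = 0.131 for Cd247, 0.108 for Lck and 0.139 for Zap70). Those of Cd247 and Zap70 were also lost without any 1 brain, Extracranial tumor 4 or SHH CNS tumor 2, and that of Zap70 without Myc CNS tumor 1, while that of Cd247 was lost without SHH CNS tumor 3. The median log2 fold change of the 35 genes was 2.54, against -0.13 for all genes, and 24 were higher at an unadjusted p under 0.05. The 3 grafts lay above all 4 extracranial tumors for 26 of 35 genes, where this held for 11.9% of all genes. Cd3e missed the threshold (log2 fold change 2.77 ± 1.26 (SE), adjusted p = 0.185), as did Cd8a (log2 fold change 3.12 ± 1.24 (SE), adjusted p = 0.133) and Klrk1 (log2 fold change 3.52 ± 0.93 (SE), adjusted p = 0.0516). DESeq2 called 20 of the 35 higher and limma voom 23, Cd8a and Klrk1 by both and Cd3e by limma voom (adjusted p = 0.0341).

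Against Myc tumors, grafts were called higher for 10 of 35 genes (28.6%, against 3.12% of all) and lower for 0 (2.88% of all, with 0 lower at an unadjusted p under 0.05 and 0 by DESeq2 or limma voom). They were Cd247, Cd2, Cd4, Cd6, Cd27, Cd28, Lck, Themis, Klrk1 and Sh2d1a. Cd4 had the smallest adjusted p (log2 fold change 3.51 ± 0.54 (SE), adjusted p = 0.0089) and was the 1 call that held without any 1 library. Cd27 (log2 fold change 5.07 ± 0.93 (SE), adjusted p = 0.0147) and Cd28 (log2 fold change 3.72 ± 0.68 (SE), adjusted p = 0.0146) were lost only without Syngeneic graft 2 (0.0521 and 0.0535), of the 17 libraries left out in turn. The other 7 were lost without any 1 graft (highest adjusted p = 0.0647 for Cd247 to 0.145 for Lck). The call of Themis was also lost without Myc CNS tumor 3, and that of Klrk1 without Myc CNS tumor 3 or 4. Those of Cd2, Cd6, Lck and Sh2d1a were each lost in 10 to 12 of the 17 fits that left out 1 library, Myc CNS tumor 1, 3 and 4 and Healthy brain 2 and 3 among them for all 4. Cd3e (log2 fold change 3.58 ± 1.30 (SE), adjusted p = 0.105) and Cd8a (log2 fold change 4.52 ± 1.31 (SE), adjusted p = 0.0551) missed the threshold. The 3 grafts lay above all 4 Myc tumors for 29 of 35 genes (14.1% of all genes), and the median log2 fold change was 3.16, against -0.11 for all genes. DESeq2 called 24 higher and limma voom 27. Of related genes outside the 35, 5 of 8 effector genes were called higher in grafts than in extracranial tumors (62.5%, against 2.16% of all), among them Gzmb (log2 fold change 5.05 ± 1.11 (SE), adjusted p = 0.0297) and Gzma (log2 fold change 6.11 ± 1.44 (SE), adjusted p = 0.0343). These 2 calls were lost without any 1 graft or without Extracranial tumor 2, that of Gzmb also without Extracranial tumor 4 and that of Gzma without Extracranial tumor 3 or Healthy brain 3 (highest adjusted p = 0.0873 and 0.103). The comparisons with extracranial and Myc tumors share the 3 grafts.

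**Figure D5:**
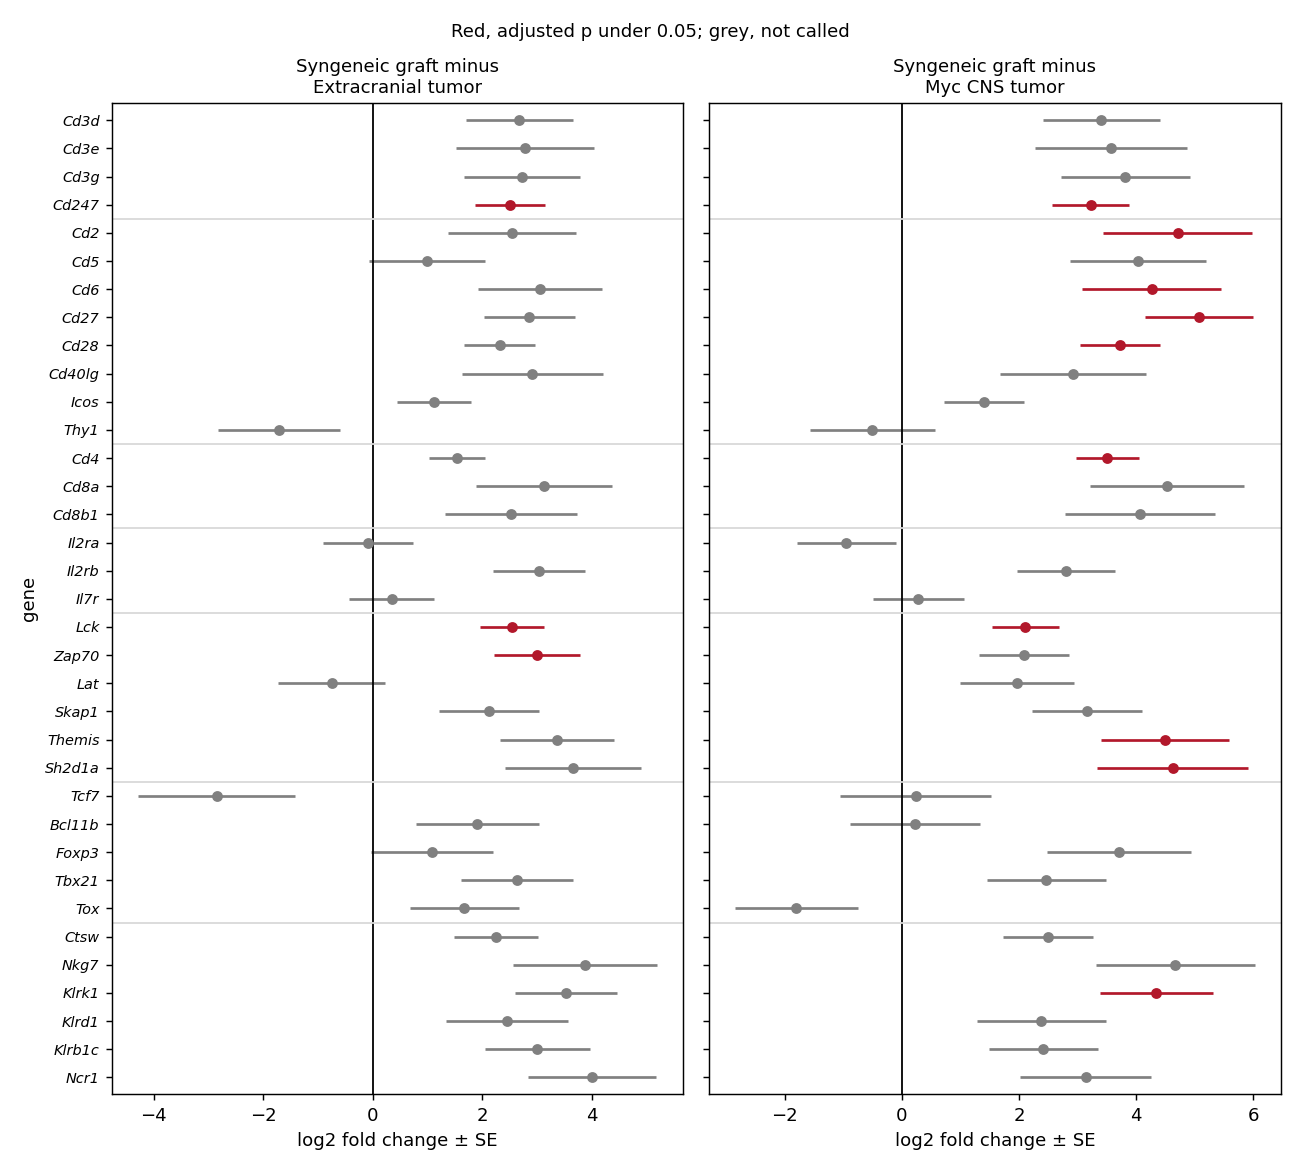
Log2 fold change ± SE of each of the 35 genes in grafts minus extracranial tumors (left) and grafts minus Myc tumors (right), with called genes in red and the others in grey. Most points lie to the right of 0, with 3 called on the left panel and 10 on the right.

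Myc tumors were compared with SHH tumors, the other CNS group. In Myc tumors 12 of 35 genes were called higher (34.3%, against 19.0% of all tested genes) and 0 lower (21.9% of all, with 1 lower at an unadjusted p under 0.05, 1 by DESeq2 and 2 by limma voom). They were the 3 cytokine receptors, 5 of 6 NK and granule genes (all but Ctsw), Cd3d, Cd4, Cd28 and Icos. Cd4 (log2 fold change 2.40 ± 0.56 (SE), adjusted p = 0.00418), Il2rb (log2 fold change 4.71 ± 1.01 (SE), adjusted p = 0.00246), Cd28 and Ncr1 kept their calls under all alternatives that could be fitted. With 1 count of Ncr1 in the SHH tumors together, its ratio of pooled CPM was 188 (95% exact binomial interval 33.3 to 7439) (adjusted p = 0.00701). The count fell to 6 without SHH CNS tumor 1 and to 7 without SHH CNS tumor 2. Without SHH CNS tumor 1, the calls of Cd3d, Icos, Il7r, Nkg7, Klrk1 and Klrb1c were lost (highest adjusted p = 0.121, for Cd3d), and all of these but Klrb1c were also lost without SHH CNS tumor 2. Cd3d was also lost without SHH CNS tumor 3 or Myc CNS tumor 1 or 4, Icos without Myc CNS tumor 4, and Nkg7 without Myc CNS tumor 1 or 3 or Syngeneic graft 2. All Myc tumors lay above all SHH tumors for 7 of 35 genes, which is near the share of all tested genes (19.8%), and below for 0 (23.1% of all). SHH CNS tumor 3 had more CD3 genes (0.974 CPM in sum) than Myc CNS tumor 2 (0.313) and 3 (0.463). Cd3e was not called between these groups.

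Between extracranial and Myc tumors 0 of 35 genes were called higher by edgeR (0% of all genes) and 0 lower (0.0186% of all), with 7 higher and 1 lower at an unadjusted p under 0.05. DESeq2 called 3 higher and 1 lower, and limma voom 0 and 0. The smallest adjusted p was 0.125, for Cd4 (log2 fold change 1.98 ± 0.49). Cd4 was also the 1 gene for which all 4 extracranial tumors lay above all 4 Myc tumors (2.24% of all genes, with 0 of the 35 below, where 2.20% of all were), with 6.78, 7.41, 29.5 and 12.7 CPM in extracranial tumors against 5.19, 1.30, 3.90 and 3.92 CPM in Myc tumors. A p that misses the threshold does not show that the groups were alike, given the median spreads of 11.5 times within extracranial and 13.9 times within Myc tumors.

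Some marker lists of other leukocytes were called higher in the same groups, and others were not. Of all tested genes, 24.9% were called higher and 30.4% lower in grafts than in brains. In extracranial and Myc tumors 26.1% and 25.3% of all tested genes were called higher. The 10 macrophage and monocyte markers were called higher than in brains in grafts, extracranial tumors and Myc tumors (10 of 10 each), and summed to 4726 to 8942 CPM in grafts, 1951 to 6984 in extracranial tumors, 1232 to 3887 in Myc tumors, 209 to 393 in SHH tumors and 56.5 to 78.8 in brains. Of 7 dendritic cell markers, 5 were called higher in grafts and Zbtb46 lower, with sums of 81.5 to 204 CPM in grafts and 28.1 to 34.3 in brains. Of 10 B and plasma cell markers, 8 were tested and Cd79b, Blk and Ighm were called higher in grafts and Pax5 lower. The genes called higher are 30% of the 10 listed, near the 24.9% of all tested genes. The 10 markers summed to 98.8 to 218 CPM in grafts and 7.58 to 23.7 in brains. Of the 6 lymph node stroma markers 4 were tested and 1 (Cxcl13) was called higher in grafts, near the 24.9% of all tested genes. The 6 markers summed to 0.645 to 3.52 CPM in grafts and 0.754 to 2.67 in brains. In extracranial tumors 1 to 4 their sums were 2.98, 29.5, 3.07 and 11.8 CPM. Those of mast cells and basophils summed to 0.141 to 0.258 CPM in grafts and 0.437 to 4.26 in brains. The part of these cells in the levels of Cd4, Il7r and the other genes that they share with T and NK cells was not tested. The neutrophil markers were called higher in grafts for 1 of 7 (Ly6g, at low levels), a smaller share than the 24.9% of all tested genes. All 7 had log2 fold changes above 0 in grafts, and for 5 every graft was above every brain (34.5% of all). In extracranial tumors 1 of 7 was called higher than in brains (26.1% of all), and in Myc tumors 4 of 7 (57.1%, against 25.3% of all). Against SHH tumors, 6 of 7 were called higher in Myc tumors (19.0% of all). Of the 4 mast cell and basophil markers tested, all missed the threshold in grafts against brains, with log2 fold changes below 0. Of the 4 tested markers of type 2 and 3 innate lymphoid cells, Il17rb and Rora were called lower in grafts and the other two missed the threshold. Of the 7 microglia markers 4 were called higher in grafts and Sall1 lower. Of the 6 exhaustion and checkpoint genes, 6 were called higher in grafts than in brains (against 24.9% of all). They include Entpd1, an ectonucleotidase that is not an inhibitory receptor and is also made by other cells, which was highest in Myc CNS tumor 2 at 367 CPM and lay at 107, 117 and 95.6 CPM in grafts 1 to 3, against 17.8, 13.1 and 13.1 in brains 1 to 3. Tigit, an inhibitory receptor, had 3.12, 13.2 and 11.1 CPM in grafts 1 to 3, 1.02, 0.136, 1.25 and 0.0340 in extracranial tumors 1 to 4, and 0.820, 0.313, 0.733 and 0.254 in Myc tumors 1 to 4. Tigit was at 0.0515, 0.0235 and 0.0453 CPM in SHH tumors 1 to 3, against 0.00794, 0.0582 and 0.0398 in brains 1 to 3. All grafts were above all other libraries for Tigit. Pdcd1 (PD-1) had 2.70, 25.3 and 10.2 CPM in grafts 1 to 3, 2.10, 0.856, 3.73 and 1.5 in extracranial tumors 1 to 4, and 4.10, 0.0521, 1.41 and 2.69 in Myc tumors 1 to 4. Pdcd1 was at 0.412, 0.188 and 0.283 CPM in SHH tumors 1 to 3, against 0.00794, 0 and 0.0318 in brains 1 to 3. Tigit was higher in grafts than in extracranial tumors (log2 fold change 3.91 ± 0.95 (SE), adjusted p = 0.037), a call lost without any 1 graft, Extracranial tumor 2, SHH CNS tumor 2 or Healthy brain 2 or 3 (highest adjusted p = 0.115). Klrc1 (NKG2A), the inhibitory partner of Klrd1, had 5.91, 9.36 and 5.27 CPM in grafts 1 to 3, 1.07, 0.0778, 0.805 and 0.102 in extracranial tumors 1 to 4, and 0.383, 0.0521, 0.567 and 0.463 in Myc tumors 1 to 4. Klrc1 was at 0.0515, 0 and 0.0113 CPM in SHH tumors 1 to 3, against 0, 0 and 0.00795 in brains 1 to 3. The grafts were above all other libraries for Klrc1 but not for Pdcd1, where Syngeneic graft 1 lay within the range of the other tumors.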

How the data were processed

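Polyadenylated RNA of 17 libraries was extracted with miRNeasy kits and made into TruSeq Stranded mRNA libraries, per the labels' protocols. The authors aligned reads to mm10 with STAR 2.5.3a, per the submitters' processing notes, and deposited raw counts per gene. The sources used here do not give the counting tool, annotation or strand setting. Symbols, positions and exonic lengths came from GENCODE vM21 (50376 of 50600 IDs matched, versions ignored).

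Counts were filtered with filterByExpr (minimum count 10), which kept 21494 genes and 99.96% of counts, and were scaled by TMM. One quasi-likelihood model over the 5 groups was fitted with edgeR 4.0.16 in R 4.3.3, and 8 comparisons were tested with Benjamini-Hochberg adjustment (threshold 0.05). Alternatives were DESeq2 1.42.0, limma 3.58.1 voom, other filters and size factors, only the 2 groups compared, the library number as a block, and leaving out libraries. The code was tested on simulated data. No pair of libraries was identical: the lowest chi-square per gene between replicates was 65.3. Library numbers are shared across groups, but the labels do not say that they pair samples, and the deviations of same-numbered libraries from their group means had correlations of -0.18 to 0.083, none over 0.1.

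The 35 genes and the marker lists were chosen with earlier results of these data known. All 35 may be named, with up to 4 genes of each list by smallest adjusted p and genes at 0 counts. Prf1, Pdcd1, Klrc1, Trdc, Entpd1, Havcr2, Pax5, Zbtb46 and the thymocyte and osteoclast genes were named after their values were seen. Ratios of low counts have 95% exact binomial intervals, with a floor of 3 counts over a group at 0.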

Additional observations from a re-analysis of the deposited data

Results flagged for a closer look

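Groups of 4 libraries were screened for 1 library whose gap to its nearest neighbour took up more of the group's range than Dixon's 95% critical value (0.829). Of 70 groups examined (35 genes in extracranial and in Myc tumors), 6 were flagged, in 5 genes. Chance flags about 1 in 20 groups where values are normally distributed. CPM are skewed and the groups share libraries, so the count flagged cannot be read against that rate. Cd5 in Extracranial tumor 4 had 10.2 CPM, far above the other extracranial tumors. Lat in the same library had 49.7 CPM. Tcf7 in Extracranial tumor 3 had 180.2 CPM and Foxp3 in the same library had 2.15 CPM. Tcf7 in Myc CNS tumor 2 had 7.56 CPM, while the other Myc tumors lay between 4.70 and 4.97 CPM. Bcl11b in Myc CNS tumor 1 had 16.1 CPM, still below every brain.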

How the results depend on the processing

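With RLE size factors, every count of the 35 genes stayed within 1.5 times its main value. In grafts against extracranial tumors, the count of genes called higher was 3, and became 1 with every gene that had a count, 5 at a minimum count of 50, 20 by DESeq2, 23 by limma voom, 0 with only the 2 groups compared, 1 without the 2 libraries with other tissue (Healthy brain 1 and SHH CNS tumor 1) and 0 without 5 such libraries. In grafts against Myc tumors, 10 became 6 with every gene that had a count, 24 by DESeq2, 27 by limma voom, and 6 without either the 2 or the 5 libraries. In Myc against SHH tumors, 12 higher became 5 with only the 2 groups, 6 without the 2 libraries and 4 without the 5, and 0 lower became 1 by DESeq2, 2 by limma voom, 1 with only the 2 groups and 1 without the 5 libraries. In SHH tumors against brains, 1 higher became 2 at a minimum count of 50, 3 by DESeq2, 4 by limma voom and 0 without the 2 or the 5 libraries, and 0 lower became 2 by DESeq2, 5 by limma voom, and 1 with only the 2 groups or with the library number as a replicate block. In Myc tumors against brains, 1 lower became 2 by limma voom. In extracranial tumors against brains, 2 lower became 1 without the 5 libraries. In grafts against brains, 1 lower became 2 by DESeq2, by limma voom, with only the 2 groups and with the replicate block. Between extracranial and Myc tumors, 0 higher became 3 and 0 lower became 1 by DESeq2. The cause was not tested, except that leaving out libraries leaves fewer samples and that the fit of only 2 groups has fewer of them.

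Without 1 library at a time, the counts higher ranged from 0 to 10 for grafts against extracranial tumors, 1 to 18 for grafts against Myc tumors, 6 to 13 for Myc against SHH tumors, 0 to 2 for SHH tumors against brains, 13 to 17 for Myc tumors against brains, 18 to 23 for extracranial tumors against brains and 25 to 30 for grafts against brains. They were 0 in all such fits for extracranial against Myc tumors. The counts lower ranged from 0 to 1 for SHH tumors against brains and for Myc against SHH tumors, and from 1 to 2 for grafts against brains. They stayed at 1 for Myc tumors and 2 for extracranial tumors against brains, and at 0 for the other comparisons of tumors. The replicate block changed no other count by more than 1.5 times, and it assumes a pairing that the labels do not state. No member reversed its direction among the calls examined. Brain counts of 0 to 3 for Cd3d, Cd8b1, Klrk1 and Ncr1 limit the size of their folds.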
